A study of Mus musculus with 7 samples.

Results

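C-type lectin receptors of the myeloid surface were followed in mouse neutrophils as a list of 7 named genes, Clec4d, Clec4e, Clec4n, Clec4a2, Clec5a, Clec7a and Clec12a. The 6 genes with a row in every count table were measured here, of 28719 genes with a row in any table, and Clec7a was not analysed here. Neutrophils had been sorted as live CD11b+ Ly6G+ cells from male wild-type C57BL/6J mice, and were read by droplet 3' RNA-seq with unique molecular identifiers (UMIs), each counting 1 captured mRNA molecule. Healthy untreated mice gave bone marrow, spleen and blood in 2 runs, from mice 6 weeks old in run 1 and 8 weeks old in run 2, with 3 mice pooled for each library. One further library held 5 pools, each of 3 mice, told apart by antibody-bound hashtags, with the treated mice 8 weeks old: healthy blood, blood and joint lavage (femorotibial per the labels, tibiotalar per the study's methods) taken on day 7 after 150 μl of K/BxN serum given intraperitoneally on days 0 and 2, lung lavage 3 h after 25 ng of IL-1β given intranasally, and peritoneal lavage 3 h after the same dose given intraperitoneally. K/BxN serum carries autoantibodies that cause arthritis in the recipient. Healthy cells counted as neutrophils when S100a8 and S100a9, the calprotectin genes, made up at least 3% of their UMIs, and cells of the hashtag library when the deposited annotation gave them an ImmGen granulocyte class.

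C-type lectin receptors bind sugars and glycolipids of fungi and mycobacteria, and also ligands of dying cells, on macrophages, dendritic cells and neutrophils. Mincle (Clec4e), MCL (Clec4d) and Dectin-2 (Clec4n) pair with the Fc receptor gamma chain, whose tyrosine motif recruits Syk, and signals through Card9, Bcl10 and Malt1 to NF-κB. MDL-1 (Clec5a) pairs with DAP12, the product of Tyrobp. DCIR (Clec4a2) and MICL (Clec12a) carry an inhibitory motif in their cytoplasmic tail that recruits the phosphatases SHP-1 and SHP-2, so the list holds activating and inhibitory receptors.

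All 6 genes lay on chromosome 6 of GRCm38, the build of the deposited tables. Clec4a2, Clec4n, Clec4d and Clec4e stood within 183.4 kb at chr6:123106428-123289870, with Clec4b2 as the single other protein-coding gene inside that span. Clec12a began 6.053 Mb beyond the cluster at chr6:129342691-129365303, and Clec5a lay 82.521 Mb before it at chr6:40574894-40585821. In GENCODE vM21 the transcript with the most exons had 6 or 7 of them in each gene. No exact stretch of 96 bases in the last 500 bases of those transcripts was shared with a transcript of another gene in that annotation. Near-identical copies with mismatches closer together than that were not searched for. The only overlapping gene found was Gm44132, a processed pseudogene on the same strand inside Clec4a2.

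RefSeq promoter windows were held for 5 of the 6 genes, Clec4n being the other. The 250 bases before the transcript start are shown for Clec4d and Clec4e, neighbours whose mRNA was higher at every inflamed site, and for Clec12a, whose mRNA was lower in the joint and higher at the IL-1β sites. Capitals mark matches, on either strand, to 4 short motifs: GAGGAA for PU.1, TTNNGNAA for C/EBP, TGANTCA for AP-1 and, for NF-κB, 3 G, any 5 bases and 2 C. The windows are chr6:123261857-123262106 on the plus strand for Clec4d, chr6:123289872-123290121 on the minus strand for Clec4e and chr6:129349994-129350243 on the plus strand for Clec12a (GRCm38.p6).
Clec4d: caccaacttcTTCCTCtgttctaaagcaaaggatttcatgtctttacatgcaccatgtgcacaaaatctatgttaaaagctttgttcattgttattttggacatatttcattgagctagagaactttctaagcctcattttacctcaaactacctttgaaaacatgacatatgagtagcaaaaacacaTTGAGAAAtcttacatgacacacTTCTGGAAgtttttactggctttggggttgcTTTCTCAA
Clec4e: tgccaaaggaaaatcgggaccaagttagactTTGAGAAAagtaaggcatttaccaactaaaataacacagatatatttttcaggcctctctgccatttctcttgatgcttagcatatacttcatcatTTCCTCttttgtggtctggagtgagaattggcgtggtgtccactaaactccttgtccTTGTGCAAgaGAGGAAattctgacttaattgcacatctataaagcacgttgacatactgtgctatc
Clec12a: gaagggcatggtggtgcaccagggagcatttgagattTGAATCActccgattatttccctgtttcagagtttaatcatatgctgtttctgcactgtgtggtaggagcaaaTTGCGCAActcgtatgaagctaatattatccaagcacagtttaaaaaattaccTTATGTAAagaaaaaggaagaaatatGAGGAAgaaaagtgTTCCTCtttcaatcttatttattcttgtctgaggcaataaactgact
The Clec4d window held 1 PU.1 and 3 C/EBP matches, and the Clec4e window 2 of each. The Clec12a window held 2 PU.1 matches, 2 C/EBP matches and 1 AP-1 match. None of the 5 windows held the NF-κB letters. Among 32841 promoter windows of the same length, 23.3% held the PU.1 letters, 36.9% those of C/EBP, 6.75% those of AP-1 and 45.8% those of NF-κB, so single matches were common. The Clec12a start used by RefSeq lies inside the gene as GENCODE draws it.

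The selection kept 1206 and 3426 neutrophils of bone marrow in runs 1 and 2, 1135 and 2010 of spleen, and 1306 and 3672 of blood. The hashtag library gave 509 cells of healthy blood, 814 of arthritic blood, 2857 of arthritic joint, 380 of IL-1β lung and 292 of IL-1β peritoneum. Median UMIs per cell ran from 775 to 2699 in the healthy libraries and from 2527 to 3681 in the hashtag pools, with 942688 to 10293966 UMIs in all per library or pool. All 13 neutrophil markers were detected in every library and pool, whose marker UMIs summed to between 155956 and 499192 counts per 1000000 UMIs (CPM). The 11 monocyte and macrophage markers summed to between 269 and 1391 CPM. Ly6c2 was the largest part in the healthy libraries, at 141 to 1342 CPM, and Csf1r in healthy blood of the hashtag library, at 166 CPM, while the defining macrophage genes C1qa, C1qb and C1qc reached at most 9.71, 9.30 and 5.11 CPM. Erythroid markers summed to 28243 CPM in blood run 2 and to at most 807 CPM elsewhere. In run 1 a table listed only 7346 to 8657 genes, and a gene with no row there was taken as 0, which touches none of the 6 receptors. Libraries shared between 0 and 36 cell barcodes with each other. Spleen run 1 stood closer to bone marrow than spleen run 2 did, with 40.7% of its neutrophils rich in granule-gene UMIs against 2.94%.

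In the healthy tissues the 3 receptors that use the Fc receptor gamma chain were lowest in bone marrow. In bone marrow, Clec4d measured 114 CPM in run 1 and 219 in run 2, whereas spleen held 199 and 690 CPM and blood 554 and 757 CPM. Both bone marrow values lay below both blood values, and the spleen runs fell on either side of the gap. The bone marrow runs held 1.88 and 6.04 CPM of Clec4n, the spleen runs 22.3 and 99.2 and the blood runs 34.6 and 77.6. Bone marrow held few Dectin-2 UMIs, 8 and 55 in total, and all 4 other libraries had higher levels. The bone marrow runs held 88.8 and 205 CPM of Clec4e, the spleen runs 115 and 386 and the blood runs 157 and 395. Here the groups overlapped, because each library of run 2 was above all of run 1, while within each run bone marrow was lowest and blood highest.

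**Figure D1:**
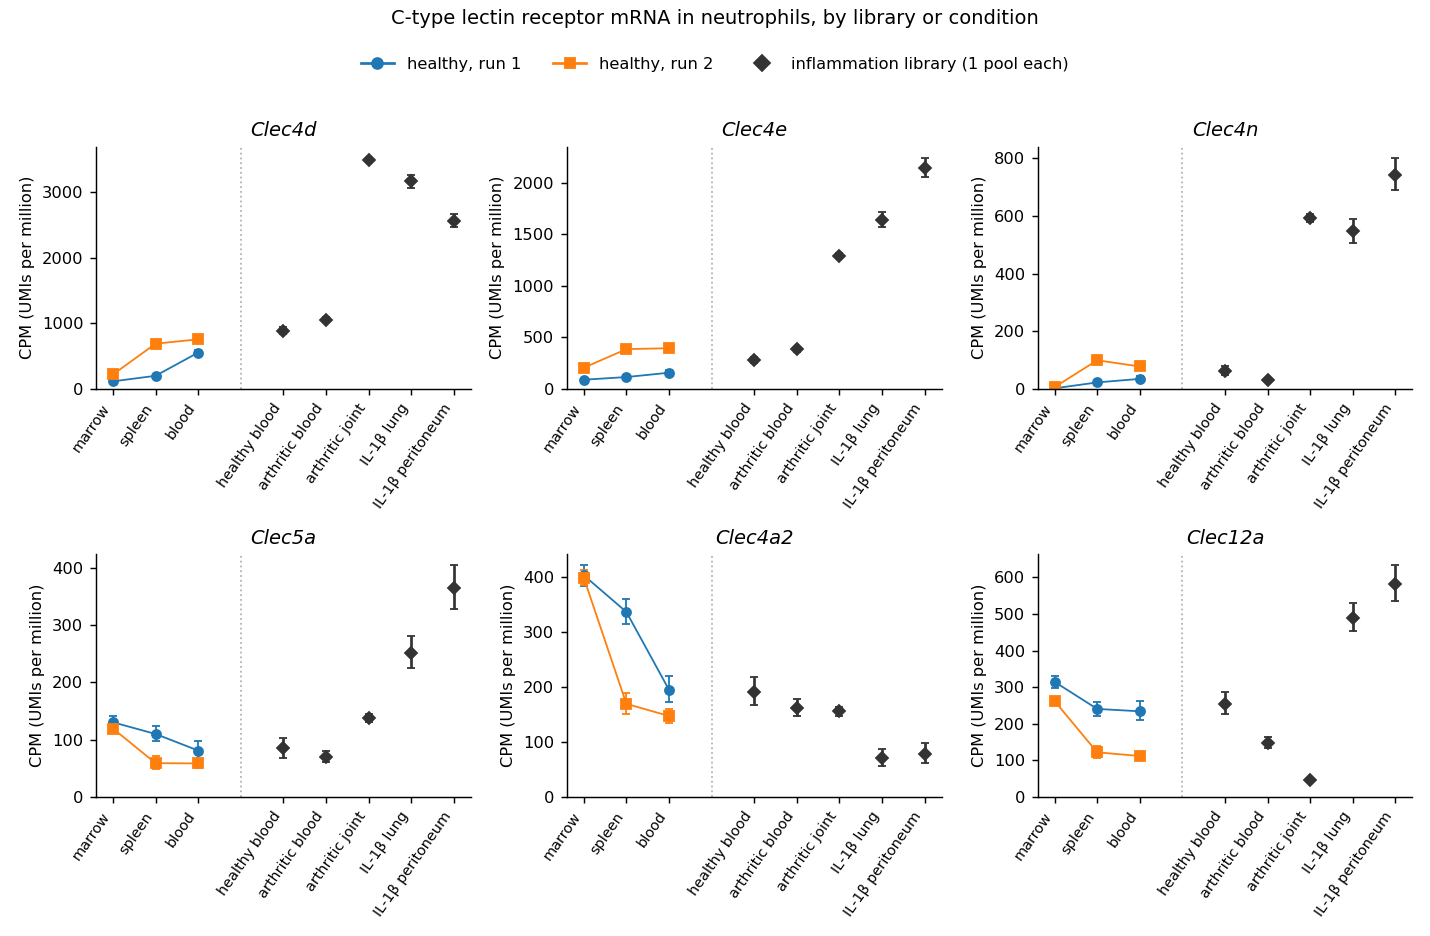
Level of each receptor gene in CPM on a linear axis from 0, with exact 95% Poisson intervals for counting error. Circles and squares are the 2 healthy runs, with lines joining the tissues of 1 run, and diamonds are the 5 pools of the hashtag library, which used another chemistry. Within the hashtag library Clec4d, Clec4e and Clec4n stand highest at the 3 inflamed sites and Clec12a is lowest in the arthritic joint at 45.9 CPM, and within the healthy libraries Clec4a2 is highest in bone marrow.

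The other receptors ran the opposite way. The bone marrow runs held 403 and 399 CPM of Clec4a2, the spleen runs 336 and 169 and the blood runs 195 and 147. The 2 bone marrow values differed by less than their counting intervals and stood above all 4 others. The bone marrow runs held 130 and 119 CPM of Clec5a, the spleen runs 110 and 58.8 and the blood runs 80.9 and 58.3. The bone marrow runs held 314 and 262 CPM of Clec12a, the spleen runs 240 and 122 and the blood runs 234 and 111. For both genes the bone marrow values were above every other library, and within each run spleen and blood lay close together for Clec12a.

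A fit over all 6 libraries with run as a block (edgeR quasi-likelihood test, Benjamini-Hochberg adjustment over 7809 genes) called 5 of the 6 receptors between bone marrow and blood, where 21.7% of all genes tested were called. Clec4n fell by 3.56 on the log2 scale in bone marrow relative to blood (SE 0.29, 11.8-fold, adjusted p = 0.0019, edgeR). Clec4d fell by 1.76 (SE 0.27, adjusted p = 0.0074, edgeR). Clec4a2 rose by 1.56 (SE 0.36, adjusted p = 0.024, edgeR), Clec5a by 1.17 (SE 0.32, adjusted p = 0.041, edgeR) and Clec12a by 1.16 (SE 0.31, adjusted p = 0.040, edgeR). Clec4e was at a log2 difference of -0.60 (SE 0.20) and missed the threshold (adjusted p = 0.073, edgeR). Each direction was the same in both runs. The median log2 difference of the 6 receptors was 0.28, beside 0.02 over all genes. With 2 libraries a tissue the count depended on single libraries: 0 receptors were called without the run block, 0 without blood run 2, 1 (Clec4n) without blood run 1 and 2 (Clec4d and Clec4n) without bone marrow run 2. In the same order 164 of 7809, 0 of 8136, 57 of 8702 and 996 of 8212 genes were called in all, against 1693 of 7809 in the fit reported. The summed monocyte and macrophage markers also moved with tissue, from 1391 and 1020 CPM (bone marrow runs) through 1157 and 356 (spleen) to 640 and 269 (blood). Ly6c2 made up most of that sum, at 1342 and 969 CPM in bone marrow and 477 and 141 in blood. Csf1r of the same list went the other way, at 11.3 and 14.9 CPM in bone marrow against 114 and 91.1 in blood. The sum therefore does not rank the tissues by monocyte content, and a selection on these markers is no test of it. In cells with no UMI of any marker of that list, Clec4n (-2.25), Clec4a2 (1.43), Clec5a (1.11) and Clec12a (0.91) were still called between bone marrow and blood. Clec4d was not (-0.47, adjusted p = 0.12, edgeR). That fit called 844 of 5392 genes in all.

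**Figure D2:**
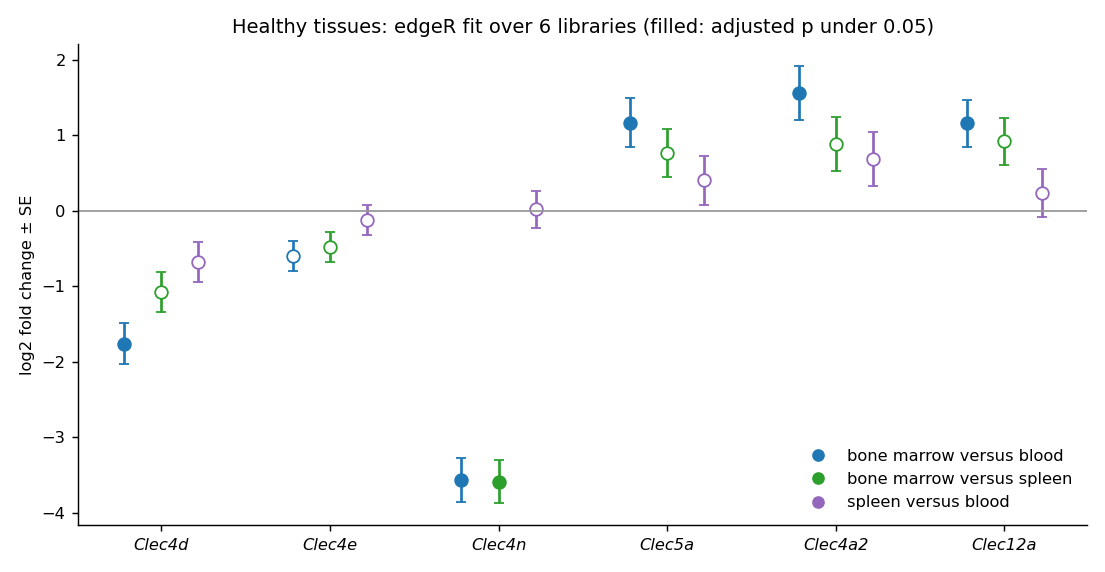
Log2 fold change with its standard error for each receptor in the 3 healthy comparisons, from the fit over 6 libraries. Filled points passed an adjusted p of 0.05, which 5 receptors did between bone marrow and blood, Clec4n alone did between bone marrow and spleen, and none did between spleen and blood.

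Between bone marrow and spleen, Clec4n was the 1 receptor called, where 2.75% of all genes were called. It fell by 3.58 on the log2 scale in bone marrow (SE 0.29, adjusted p = 0.011, edgeR). Clec4d stood at -1.08 (SE 0.27, adjusted p = 0.097, edgeR), and the other 4 were between -0.48 and 0.92. Without spleen run 1 the fit called 5 receptors, all but Clec4e (1250 of all 8757 genes), and without blood run 1 or blood run 2 it called 0 receptors and 0 of all genes. Between spleen and blood 0 receptors were called, where 0.0512% of all genes were, and the smallest unadjusted p was that of Clec4d at 0.038 (edgeR), the single member under 0.05. DESeq2 also called 0 there. The spleen to blood difference depended on the run: Clec4d in spleen was at 199 against 554 CPM in run 1 and at 690 against 757 CPM in run 2.

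Granule-gene content, a mark of immature neutrophils, split the receptors within each library. Camp, Ngp, Ltf, Lcn2 and Chil3 encode granule proteins made in the bone marrow stages, and cells with 5% or more of their UMIs from them were compared with cells under 1%. Clec4d was lower in the granule-high cells in 6 of 6 healthy libraries, at 0.041 to 0.073 times the granule-low level. In bone marrow run 2, for example, it measured 43.5 CPM in 1179 granule-high cells and 593 CPM in 1206 granule-low cells. Clec4e was lower in 6 of 6, at 0.13 to 0.38 times. These levels are shares of UMIs, and granule-high cells held more UMIs each. In bone marrow run 2, 1179 granule-high cells held 4959851 UMIs and 1206 granule-low cells 1882813. A lower share was thus not always a lower count per cell: in spleen run 1 Clec4e had 138 UMIs in 462 granule-high cells and 138 in 589 granule-low cells. Clec4n was lower in 6 of 6, with 0 UMIs in the granule-high cells of blood runs 1 and 2 and of spleen run 2, where the exact upper limits were 12.2, 39.3 and 15.3 CPM. In bone marrow run 1 it had 2 UMIs in granule-high and 4 in granule-low cells, and the intervals overlapped (0.08 to 2.36 and 1.91 to 17.9 CPM). Clec4a2 was higher in granule-high cells in 6 of 6 libraries, at 1.56 to 3.61 times, and Clec12a in 6 of 6, at 1.31 to 3.87 times. Clec5a was higher in 5 of 6, at 0.80 to 2.21 times, the exception being blood run 1. Its counting intervals in the granule-high and granule-low cells overlapped in both bone marrow and both blood libraries and were apart in both spleen libraries. All these ranges of ratios are descriptions over libraries of which the 3 of a run share mice.

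**Figure D3:**
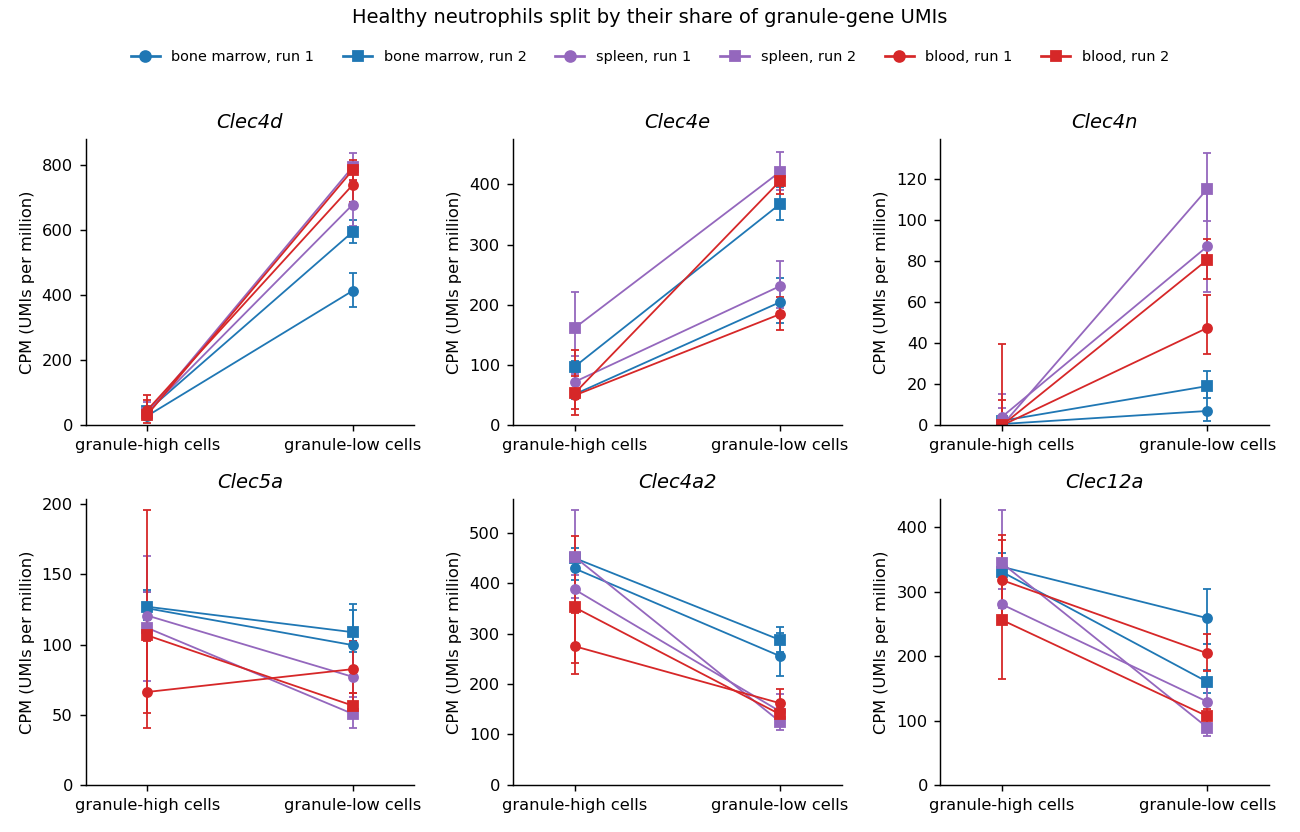
CPM of each receptor in granule-high cells (5% or more of UMIs from 5 granule genes) and granule-low cells (under 1%) of the 6 healthy libraries, each line being 1 library, with exact 95% Poisson intervals. All lines rise towards granule-low cells for Clec4d, Clec4e and Clec4n and fall for Clec4a2 and Clec12a.

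The share of granule-low cells moved with tissue. Bone marrow had 24.7% in run 1 and 35.2% in run 2, spleen 51.9% and 95.9%, and blood 87.1% and 98.4%. Among granule-low cells alone, the bone marrow to blood difference of Clec4d was -0.29 (adjusted p = 0.48, edgeR) and that of Clec4e was 0.30 (adjusted p = 0.42, edgeR). Dectin-2 still fell, by 1.84 (adjusted p = 0.0038, edgeR), in a fit that called 614 of all 6042 genes. The other receptors still rose, Clec4a2 by 1.18 (adjusted p = 0.0054, edgeR), Clec5a by 0.99 (adjusted p = 0.028, edgeR) and Clec12a by 0.78 (adjusted p = 0.024, edgeR). Between bone marrow and spleen the granule-low fit called 4 receptors (517 of all 6042 genes), with Clec4a2 at 1.35 (adjusted p = 0.0035, edgeR) and Clec12a at 1.25 (adjusted p = 0.0033, edgeR) higher in bone marrow, as was Clec5a, and Clec4n lower by 2.47 on the log2 scale (adjusted p = 0.0010, edgeR).

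Free RNA was gauged in cells that failed the neutrophil cut and carried 2 or more UMIs of B cell markers. After thinning every cell to 500 UMIs, Clec4d had a UMI in 31.6% of spleen run 2 neutrophils and in 1.45% of 1660 B-marker cells of that library, whose median depths were 775 and 1482 UMIs. Clec4n had one in 4.63% against 0.843%. In bone marrow run 2 Clec4n was seen in 0.321% of neutrophils and in 0 of 305 B-marker cells, which leaves an exact upper limit of 1.202%, so its share there was not above the background this control can resolve. In blood run 2 Clec4n was in 3.70% of neutrophils and 3.23% of only 93 B-marker cells (exact 95% interval 0.670% to 9.14%), so there too it was not above what this control can resolve, while Clec4d was in 32.6% against 4.30%. Clec12a in bone marrow run 2 was in 9.43% of neutrophils against 3.61% of B-marker cells, or 262 against 98.1 CPM. For Clec4d the same cells gave 219 against 13.6 CPM, so the control did not show 1 background common to all genes. Whether these B-marker cells express Clec12a themselves was not tested. The B-marker cells also had under 3% of their UMIs from the calprotectin genes, which may select cells with little neutrophil RNA. Unthinned, Clec4d had a UMI in 49.4% of the blood run 2 neutrophils.

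At the inflamed sites the 3 receptors that use the Fc receptor gamma chain stood far above healthy blood of the same library. Each condition was 1 pool, so the ratios have counting intervals and no test. Clec4d measured 891 CPM in healthy blood, 1057 in arthritic blood, 3494 in arthritic joint, 3171 in IL-1β lung and 2571 in IL-1β peritoneum. Clec4e measured 278, 384, 1294, 1643 and 2150 CPM in the same order. Clec4n measured 63.1, 30.1, 593, 547 and 744 CPM. All 3 were low in both bloods and high at all 3 sites, with no overlap between the counting intervals of blood and site.

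Total-UMI scaling places the ratios against a moving background. The median log2 ratio to healthy blood over all genes was -0.40 in arthritic blood, -0.47 in joint, -0.97 in lung and -1.06 in peritoneum, and TMM factors, which centre most genes, brought these to between -0.15 and 0.09. Each ratio is therefore given by total UMIs and then by TMM. Clec4n was 9.40 times healthy blood in the joint (95% interval 7.44 to 12.0) and 13.8 times by TMM. It was 8.66 times (6.78 to 11.2) in lung and 11.8 times (9.22 to 15.3) in peritoneum, or 16.2 and 22.2 times by TMM. Clec4e was 4.65 times (4.16 to 5.22) in the joint, 5.91 times (5.24 to 6.67) in lung and 7.73 times (6.86 to 8.73) in peritoneum. By TMM these became 6.84, 11.0 and 14.5 times. Clec4d was 3.92 times (3.68 to 4.18) in the joint, 3.56 times (3.32 to 3.82) in lung and 2.89 times (2.68 to 3.11) in peritoneum, or 5.77, 6.65 and 5.43 times by TMM. By total UMIs Clec4d was thus highest in the joint and Clec4e highest in the peritoneum.

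**Figure D4:**
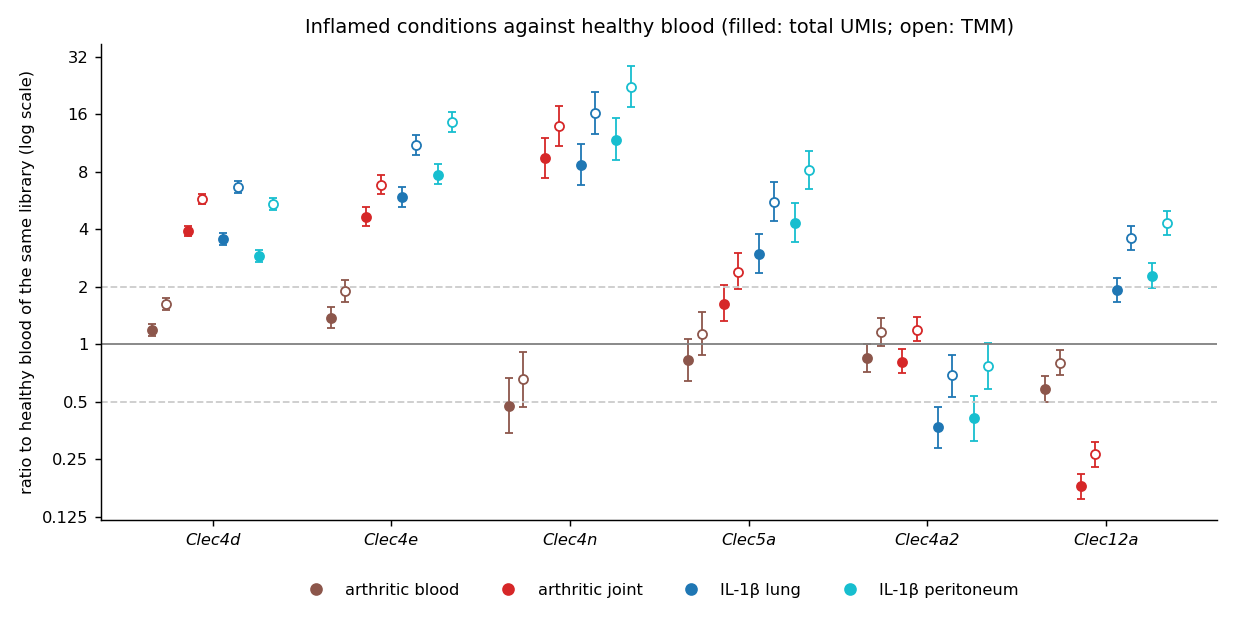
Ratio of each receptor's level to healthy blood of the same library, on a log axis, for the 4 other pools, with exact 95% intervals that cover counting error only. Filled points are scaled by total UMIs and open points by TMM, and dashed lines mark a 2-fold difference. Clec12a is below 0.5 in the joint and above 1.9 at both IL-1β sites under either scaling.

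Clec5a stood highest at the IL-1β sites. It measured 84.5 CPM in healthy blood, 69.8 in arthritic blood, 138 in joint, 252 in lung and 365 in peritoneum. Its ratio was 1.63 (1.33 to 2.03) in the joint, 2.98 (2.37 to 3.79) in lung and 4.32 (3.43 to 5.48) in peritoneum, and 2.40, 5.57 and 8.13 by TMM.

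The inhibitory receptors parted from each other. Clec12a measured 254 CPM in healthy blood, 148 in arthritic blood, 45.9 in joint, 490 in lung and 582 in peritoneum. Its ratio was 0.181 (0.156 to 0.210) in the joint, 1.93 (1.67 to 2.22) in lung and 2.29 (1.98 to 2.65) in peritoneum. By TMM these were 0.266, 3.60 and 4.31, so MICL mRNA was lower than healthy blood in the joint and higher at both IL-1β sites under either scaling. Clec4a2 measured 191 CPM in healthy blood, 162 in arthritic blood, 155 in joint, 70.4 in lung and 78.5 in peritoneum. Its ratio was 0.368 (0.286 to 0.472) in lung and 0.411 (0.311 to 0.537) in peritoneum. By TMM it was 0.688 (0.533 to 0.881) and 0.772 (0.585 to 1.01), so DCIR mRNA was past 2-fold under total UMIs only. In the joint its direction turned with the scaling, from 0.813 to 1.195.

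Past a 2-fold difference by total UMIs were 1 of 6 receptors in arthritic blood (12.5% of all genes with 20 or more UMIs), 4 in joint (36.6%), 5 in lung (60.2%) and 6 in peritoneum (62%). By TMM the counts were 0 (7.87% of all genes), 5 (27.9%), 5 (44.6%) and 5 (44.5%). The median log2 ratio of the receptors was 1.34 in joint, 1.71 in lung and 1.82 in peritoneum, beside the medians of all genes given above. All 4 comparisons share the healthy blood pool of 509 cells. The monocyte and macrophage markers summed to 283 CPM in healthy blood, 301 in joint, 296 in lung and 389 in peritoneum, with Ccr2 at 0 in all of them but the joint. Within that list Adgre1 was at 44.4 CPM in healthy blood and 157 in peritoneum, Ly6c2 at 66.7 in healthy blood and 114 to 195 at the sites, Fcgr1 at 0.889 in healthy blood and 8.06 in the joint, and Csf1r at 166 in healthy blood and 68.9 to 109 at the sites. Cells with no UMI of any such marker gave the same number of receptors past 2-fold at the 3 sites. The granule gene Lcn2 itself was at 813 CPM in healthy blood, 4096 in lung and 11753 in peritoneum, where Camp was at 18.0, Ngp at 103 and Ltf at 33.9 CPM, and nothing is read from the granule classes in this library.

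Within arthritic mice, joint and blood neutrophils were compared directly, where 4 receptors were past 2-fold (24.8% of all genes) and 5 by TMM (25.2%). Clec4n was 19.7 times higher in the joint (15.8 to 24.9), Clec4e 3.37 times (3.17 to 3.60) and Clec4d 3.31 times (3.18 to 3.44). Clec12a was at 0.310 times the blood level (0.271 to 0.355). Clec4a2 was at 0.962 times (0.864 to 1.07), and Clec5a at 1.98 times (1.70 to 2.31), at the edge of the 2-fold rule. Between the 2 IL-1β sites, 0 receptors were past 2-fold (18.3% of all genes, 18.4% by TMM). Lung to peritoneum ratios ran from 0.691 for Clec5a to 1.23 for Clec4d, the only one above 1. In arthritic blood, Clec4n was at 0.476 times healthy blood (0.342 to 0.665; 0.656 by TMM) and Clec12a at 0.583 times (0.499 to 0.681; 0.802 by TMM). Clec4e was at 1.38 times (1.21 to 1.57) and Clec4d at 1.19 times (1.10 to 1.28), or 1.90 and 1.63 by TMM, while Clec5a and Clec4a2 turned direction with the scaling, from 0.827 to 1.14 and from 0.845 to 1.16.

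Shares of cells with a UMI were higher at the sites for Clec4d and Clec4n. No background share was measured in the hashtag library, in which all 5 pools shared 1 capture, and the part of free RNA in these shares was not tested. With each cell thinned to 1000 UMIs, which left out cells shallower than that (155 of 509 in healthy blood), Clec4d had a UMI in 54.8% of healthy blood cells, 61.3% of arthritic blood, 91.7% of joint, 94.4% of lung and 84.4% of peritoneum cells. Clec4n had one in 4.802%, 3.71%, 32.3%, 35.3% and 39.8%. Clec12a had one in 22.3%, 13.1%, 4.35%, 23.8% and 26.8%. Thus the joint had the lowest share of Clec12a cells, while lung and peritoneum shares overlapped that of healthy blood within their exact 95% intervals. A cell had a UMI of 1.28 of the 6 receptor genes on average in healthy blood and of 2.63 in peritoneum. Cells with 3 or more made up 11.3% of healthy blood, 7.57% of arthritic blood, 32.4% of joint, 46.5% of lung and 54.1% of peritoneum.

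**Figure D5:**
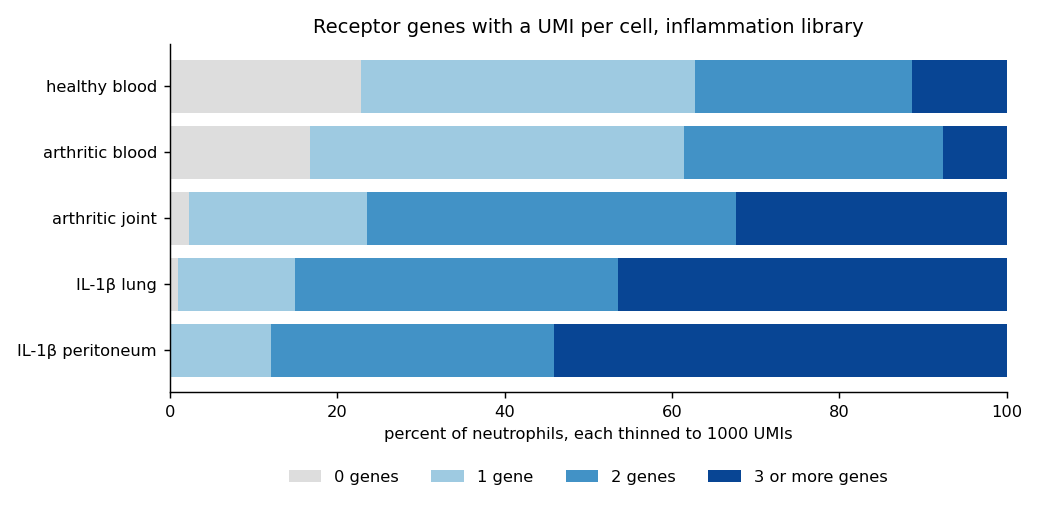
Percent of neutrophils in each pool of the hashtag library with UMIs of 0, 1, 2 or 3 and more of the 6 receptor genes, after thinning each cell to 1000 UMIs. The share with none is 22.9% in healthy blood, 2.27% in the joint and 0% of 231 cells in the peritoneum.

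Pairs of receptors were then counted in the same thinned cells. Clec4e was seen in 26.3% of healthy blood cells with Clec4d and 15.6% of those without, and in 61.8% and 53.5% in the joint. The order was the other way in arthritic blood (29.3% and 32.2%), lung (65.9% and 68.8%) and peritoneum (75.9% and 77.8%). Clec4d was seen in 270 of 286 lung cells and 195 of 231 peritoneum cells, so few remained without. No interval or test was computed for any pair, and small differences are not read as an order. Clec12a was seen in 3.75% of joint cells with Clec4d and 11.0% of those without. It was also less frequent in cells with Clec4d in healthy blood (21.1% and 23.8%), arthritic blood (10.9% and 16.5%) and peritoneum (25.1% and 36.1%), but not in lung (24.1% and 18.8%). In both lung and peritoneum these shares again rest on few cells without Clec4d. By deposited ImmGen class, the 2260 joint cells of the arthritic synovial fluid class (GN.Arth.SynF) held 3744 CPM of Clec4d, 618 of Clec4n and 39.8 of Clec12a. The 255 joint cells of the blood class (GN.Bl) held 1746, 111 and 103 CPM. The 245 joint cells of the GN.Thio.PC class held 3314, 1045 and 38.4 CPM, and the 96 of GN.UrAc.PC held 1896, 378 and 65.8 CPM. Cells classed as blood within the joint lay between the joint mean and arthritic blood for all 3 genes. Per the study's methods the class was assigned from each cell's own counts, so such a position is partly built into the label.

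Partners of the receptors were counted from 4 lists, with log2 differences of bone marrow relative to blood from the same fit, in which 21.7% of all genes were called. Of 17 adaptor and proximal signalling genes, 0 rose and 4 fell, among them Syk (-1.28, adjusted p = 0.0096, edgeR), Tyrobp (-1.17, adjusted p = 0.015) and the Src-family kinase gene Fgr (-1.13, adjusted p = 0.016). The median of this list was -0.29, and its share called was close to that of all genes. Of 3 inhibitory phosphatases, Ptpn6, which encodes SHP-1, fell (-0.72, adjusted p = 0.047, edgeR). Of 15 NF-κB and output genes 9 were tested and 3 fell: Il1b (-4.48, adjusted p = 0.0022, edgeR), the prostaglandin synthase gene Ptgs2 (-4.005, adjusted p = 0.0496) and the chemokine gene Ccl4 (-2.840, adjusted p = 0.011). Of 23 other C-type lectin-like genes 8 were tested and 4 fell, among them Clec4a3 (-2.79, adjusted p = 0.0028, edgeR), Clec4a1 (-2.51, adjusted p = 0.0067) and Clec2d (-1.43, adjusted p = 0.015). Clec4a1 and Clec4a3, paralogs of Clec4a2, were thus lower in bone marrow where Clec4a2 was higher. Relative to spleen, 1 gene each of the last 2 lists fell in bone marrow, Il1b (-3.56, adjusted p = 0.014, edgeR) and Clec4a3 (-1.97, adjusted p = 0.027). Between spleen and blood 0 genes of the 4 lists were called.

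The adaptors were abundant in every pool of the hashtag library. Fcer1g, the Fc receptor gamma chain, measured 2070 CPM in healthy blood, 2033 in arthritic blood, 3093 in joint, 3362 in lung and 3322 in peritoneum. Against healthy blood it was 1.49, 1.62 and 1.60 times higher at the 3 sites by total UMIs and 2.20, 3.03 and 3.02 times by TMM. Tyrobp measured 8508, 7434, 8480, 4782 and 4825 CPM, and Syk 420, 323, 361, 602 and 502 CPM. In lung and peritoneum Tyrobp was 1.78 and 1.76 times lower than in healthy blood by total UMIs but 1.05 and 1.07 times higher by TMM, and Syk was 1.43 and 1.19 times higher by total UMIs and 2.67 and 2.24 times by TMM. Of the 17 signalling genes, 0 were past 2-fold and higher and 1 lower in joint, 2 and 4 in lung, and 3 and 3 in peritoneum. By TMM the counts were 1 and 1, 6 and 3, and 9 and 2, so the balance of directions at the IL-1β sites depended on the scaling. Of all genes, 36.6%, 60.2% and 62% were past 2-fold at these sites by total UMIs and 27.9%, 44.6% and 44.5% by TMM. Whether the list's share at the IL-1β sites was below or above that of all genes turned with the scaling. Card9 was lower at each site, at 15.7 CPM in joint, 9.08 in lung and 10.6 in peritoneum against 50.7 in healthy blood. Traf6, a ubiquitin ligase of NF-κB signalling, was at 149 CPM in lung and 81.7 in peritoneum against 13.3, and Malt1 at 62.8 and 81.7 against 31.1. Plcg2 was at 11.4 and 25.5 CPM against 91.6, and in peritoneum its 3.60 times lower level was 1.91 times lower by TMM. Prkcd was past 2-fold in lung by total UMIs, at 172 against 392 CPM (1.22 times lower by TMM).

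Of the NF-κB and output list, 5 of 10 genes with enough UMIs were past 2-fold and higher in joint, 10 of 11 in lung and 10 of 10 in peritoneum, with none lower, beside those shares of all genes in either direction. By TMM 7, 11 and 10 were higher. Cxcl1 in lung (62 UMIs against 0 in healthy blood) passed the minimum of 20 UMIs only through the inflamed pool. So did Il23a in lung (26 against 2) and peritoneum (67 against 2). With so few UMIs in healthy blood, any tested value of these genes would have counted as higher. Cxcl2, a neutrophil attractant, measured 210 CPM in healthy blood, 7416 in joint, 14116 in lung and 6763 in peritoneum. Ccl4 measured 140, 3204, 4718 and 3772 CPM, and Ccl3 55.1, 1246, 2351 and 1593 CPM. Ptgs2 measured 23.1, 658, 425 and 238 CPM in that order. Tnf was at 10.7 CPM in healthy blood and 56.1, 84.0 and 292 CPM at the sites. Nfkb1 was past 2-fold at the IL-1β sites only, at 60.5 CPM in healthy blood, 443 in lung and 592 in peritoneum. Of the phosphatases, Inpp5d, which encodes SHIP-1, was at 184 CPM in healthy blood, 251 in lung and 74.3 in peritoneum, lower there by 2.48 times and by 1.32 times under TMM. Of the 3 phosphatases, 0 were past 2-fold in joint and lung and 1 was lower in peritoneum by total UMIs, whereas by TMM 1, 1 and 2 were higher and 0 lower, so the direction of this list turned with the scaling. Among the other lectin-like genes, Olr1, the oxidised-LDL receptor LOX-1, had 3 UMIs in healthy blood (2.67 CPM) and 109, 145 and 222 CPM in joint, lung and peritoneum. Olr1 likewise passed the UMI minimum only through those sites. Of this list, 1 of 9 genes tested was past 2-fold and higher and 2 lower in joint, 2 and 2 of 6 in lung and 2 and 1 of 8 in peritoneum, or 2 and 1, 2 and 2, and 5 and 0 by TMM. Cd69 was at 26.7 CPM in healthy blood, 13.7 in joint, 60.6 in lung and 109 in peritoneum. Clec4a1 and Clec4a3 were both at 3.03 CPM in lung against 16.002 and 24.003 in healthy blood, from 4 UMIs each, and at 23.3 and 22.3 CPM in peritoneum.

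The genes most like each receptor over the 11 values (6 libraries and 5 pools, each centred within its run or library) were ranked among 3802 genes by Pearson correlation of log2(CPM + 10). For Clec4d they were Sdcbp (r = 0.98), Arrdc4 (0.98) and Fosl2 (0.98), and for Clec4e they were Plek (0.99), Cd14 (0.98) and Helz2 (0.97). For Clec4n they were Ddx3y (0.99), Snx20 (0.97) and Fcer1g (0.97), the last being the adaptor of Dectin-2. Clec4a2 was nearest Rp2 (0.99), Ywhab (0.98) and Txndc17 (0.98), and Clec5a nearest Fpr2 (0.97), C3 (0.97) and AA467197 (0.96). Clec12a had the loosest neighbours, Rffl (0.89), Dnajc10 (0.88) and Limk2 (0.86). Among the receptors themselves, Clec4e and Clec4n were at 0.93, Clec4d and Clec4n at 0.89 and Clec4d and Clec4e at 0.82, while Clec4a2 was at -0.83 to -0.78 with each of those 3. Clec12a was between -0.23 and 0.14 with all but Clec5a (0.64). The 11 values share pools, chemistry and mice, so these are descriptions without a p.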

How the data were processed

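The counts were made by the authors: per the labels, 10x Genomics 3' libraries were processed with Cell Ranger against mm10, and the deposited tables hold whole-number UMI counts per gene and cell, not normalized. Per the study's methods the healthy libraries used v2 and the hashtag library v3 chemistry, while the labels also name V1, so the 2 healthy runs may differ in chemistry. Levels were compared only within the healthy libraries, with run as a block, and within the hashtag library. Doublets had been gated out by scatter in the sort, hashtag doublets removed before deposit, and no further caller was run. The deposited cell annotation (pool and ImmGen class, a label rather than a score) was used as it stands. Members and gene lists were chosen with earlier results of these data known.

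UMIs were summed over the neutrophils of each library. Cells are not replicates. The 6 healthy sums (1360064 to 9104133 UMIs) were tested in edgeR 4.0.16 (R 4.3.3) with TMM factors, filterByExpr, run as a block and an adjusted p threshold of 0.05, with DESeq2 1.42.0 as an alternative. Each run drew its blood, marrow and spleen from one set of mice, and same-run libraries deviated together (r = 0.55 to 0.63 over 7809 genes). On simulated data with 200 changed genes among 7292, the edgeR step for bone marrow against blood recovered 100% of 4-fold and 25% of 2-fold changes. The simulation used a dispersion of 0.05 for every gene and no run effect, so these rates need not hold for the real libraries. Hashtag pools have 1 sample each and no test: CPM carry exact Poisson intervals and ratios exact binomial intervals at 95%, which cover counting error only, and a gene was past the fold at 2 or more or 0.5 or less with 20 or more UMIs in the 2 pools together. A count of 0 was taken at a floor of 3 UMIs. Genes named are the receptors, up to 4 list genes a direction, list and comparison among those called, and the 3 genes most like each receptor with a mean of 20 CPM or more. Fcer1g, Tyrobp, Syk and Nfkb1 in the hashtag pools fall outside that rule and were chosen after their values were seen. Alternatives were other tools, filters, cell selections and each library left out. One alternative, genes with a row in all 6 healthy tables (6691 genes), was added after seeing the data. P-values measure how far tissue differences varied between the 2 runs, each from 3 pooled mice, once the part shared by a run was removed. The spread used by edgeR also draws on all genes tested. Some genes of the lists are counted but not reported by name here.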

Additional observations from a re-analysis of the deposited data

Results flagged for a closer look

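Clec12a and Clec4n differed in direction against healthy blood between inflamed pools, with counting intervals clear of 1 on both sides under total-UMI and TMM scaling. The differences were not tested, since each pool is 1 sample. Clec12a was at 0.181 times healthy blood in the arthritic joint and at 0.583 times in arthritic blood, against 1.93 times in IL-1β lung and 2.29 times in IL-1β peritoneum. By TMM the same ratios were 0.266, 0.802, 3.60 and 4.31. Clec4n was at 0.476 times healthy blood in arthritic blood, against 9.40, 8.66 and 11.8 times in joint, lung and peritoneum, and at 0.656 times by TMM. The joint pool was taken on day 7 of serum transfer and the IL-1β pools after 3 h, so agent, time and tissue cannot be told apart between them. Arthritic blood and joint share serum and day and differ in tissue.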

How the results depend on the processing

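Of 45 recomputed healthy counts of called receptors, 32 stayed within 1.5 times of the value reported and 13 moved, and of 36 counts past 2-fold in the hashtag library 33 stayed and 3 moved. Between bone marrow and blood, 5 receptors were called, 0 without the replicate block, and 0 to 6 with 1 library left out. Between bone marrow and spleen, 1 was called, 0 without the replicate block, 2 with DESeq2, 4 in cells with no monocyte or macrophage marker UMI, 4 in granule-low cells, and 0 to 5 with 1 library left out. Between spleen and blood, 0 were called, and 0 to 1 with 1 library left out. Removing the block also lowered the count over all genes from 1693 to 164 between bone marrow and blood, from 215 to 0 against spleen and from 4 to 0 between spleen and blood. Over all genes, bone marrow against blood also gave 844 calls in cells with no monocyte or macrophage marker UMI, 614 in granule-low cells, 57 without blood run 1, 996 without bone marrow run 2 and 2626 without spleen run 1. Bone marrow against spleen gave 766 and 517 in those cell selections and 0 to 1250 with 1 library left out, and spleen against blood 0 to 245 with 1 library left out, 28 by DESeq2 and 46 and 8 in those selections. DESeq2 called 270 of 7809 genes between bone marrow and spleen, beside 215 by edgeR. In arthritic blood, 1 receptor was past 2-fold, and 0 by TMM, 0 in cells with no monocyte or macrophage marker UMI and 0 after thinning to 1000 UMIs. Leaving out a library leaves a tissue with 1 sample, which is assumed to vary like the others. Without blood run 2 the bone marrow to blood fit called 0 of 8136 genes. The cause of these moves was not tested.

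In the healthy tissues, signs turned only for differences that were not called in either fit. For bone marrow against blood, Clec4e went to 0.18 in cells with no monocyte or macrophage marker UMI and to 0.30 in granule-low cells, and against spleen to 0.14 in granule-low cells. For spleen against blood, Clec4n (0.02) went to -0.003 with DESeq2, -0.01 with no low-count filter, -0.001 and -0.28 at S100 thresholds of 1% and 10%, -0.25 without blood run 2 and -0.15 without spleen run 2. In cells with no monocyte or macrophage marker UMI, Clec4e went to 0.22, Clec5a to -0.13 and Clec12a to -0.34. In granule-low cells, Clec4e went to 0.16, Clec4a2 to -0.17, Clec5a to -0.15 and Clec12a to -0.47. With 1 library left out, the spleen to blood values ranged from -0.052 (without spleen run 1) to 1.279 (without spleen run 2, adjusted p = 0.043 by edgeR) for Clec4a2, from -0.231 to 0.933 for Clec5a and from -0.248 to 0.63 for Clec12a. In bone marrow 87.4% and 77.1% of neutrophils carry a monocyte or macrophage marker UMI, so that selection leaves 152 and 785 cells. Clec4n had 8 and 55 UMIs in bone marrow, in the healthy libraries with the most UMIs, so its fold change there rests on few counts.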
